A study of Mus musculus with 6 samples.

Results

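The clustered histone genes of the mouse were taken from the RNA-seq table of a study of pluripotent embryonic stem cells (ESCs) and of the neuronal cells (NCs) made from them with retinoic acid (RA). Every entry whose name begins with Hist1h, Hist2h, Hist3h or Hist4h was kept, and no measured value was used in the choice. The table held 67 such entries under 64 gene names, of 23235 entries under 22969 names in all. They comprised 6 entries for the linker histone H1, 18 for H2a, 18 for H2b, 12 for H3 and 13 for H4. The names Hist1h2ao, Hist1h2br and Hist2h2aa2 each had 2 entries. The cells were of E14Tg2a, 1 mouse ESC line, at passages 37 to 40. ESCs were grown with leukemia inhibitory factor (LIF) and gave 3 samples. NCs had been kept without LIF in 1 μM RA for 48 h and gave the other 3 samples. The labels name no allele, transgene or clone beyond the line itself, so both groups share its background.

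Histones are the proteins around which DNA is wound in nucleosomes. H2a, H2b, H3 and H4 form the core of the nucleosome, and H1 binds the linker DNA between cores. Most clustered genes are replication-dependent: they are transcribed mainly in S phase, when new chromatin is assembled, and their mRNA is cut behind a stem-loop instead of receiving a poly(A) tail. The stem-loop binding protein SLBP holds that stem-loop during processing and translation. A library made from poly(A) RNA therefore takes up such mRNA poorly, and an FPKM of these genes then counts mainly molecules that do carry a tail. Whether poly(A) RNA was selected is not given in the sources used here.

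The stem-loop letters were searched in the GENCODE M21 transcripts (GRCm38) as 6 bases of stem beginning with GG, 4 bases of loop and the complementary 6 bases ending in CC, on the transcript strand only. They were present in 43 of the 64 names, counting any transcript of a name. Counted by transcript instead, 0.909% of all M21 transcripts of any gene held them, those of histone genes included. Some of the other names have short transcript models, such as Hist1h4k with 312 bases and Hist1h2ai with 393, which may end before the stem-loop. Absence of the letters therefore need not be a trait of the gene. The 31 stems of H1, H2a, H2b and H3 names that held the letters all read GGCTCT on their 5′ arm, whereas 10 H4 stems read GGCCCT and 2 read GGTCCT. The sequences shown here belong to the members on which the values below turn, with the stem and loop in capitals and 5 bases on each side in lower case.
Hist3h2ba: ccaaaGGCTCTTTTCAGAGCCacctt
Hist1h2bh: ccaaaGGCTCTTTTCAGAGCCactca
Hist1h1c: caaaaGGCTCTTTTCAGAGCCaccac
Hist1h3c: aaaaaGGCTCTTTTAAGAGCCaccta
Hist1h4d: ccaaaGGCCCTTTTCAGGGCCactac
Hist1h4i: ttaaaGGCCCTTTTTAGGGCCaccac
Hist2h4: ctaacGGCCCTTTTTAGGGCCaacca
Hist1h4i and Hist2h4 carried the same stem and loop letters but stood on opposite sides of the comparison of ESCs with NCs.

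Expression was deposited as FPKM, a count of fragments divided by transcript length and library size, with 1 value for each condition that pools its 3 replicates. The spread between replicates is therefore unknown, no test of a difference between ESCs and NCs could be made here, and no SD stands beside any value. A difference was counted when the NC value was at least 2-fold above or below the ESC value and the FPKM was at least 1 in either condition. The depth per sample is unknown as well. From the steps between the lowest values, 1 fragment in a transcript with 1 kb open to alignment was worth at most 0.0138 FPKM in ESCs and 0.0142 in NCs. The numbers of fragments and the exact 95% intervals given with a fold rest on these steps and on M21 transcript lengths, which may differ from the gene models of the authors, and they cover counting error only. As a check of the labels, Pou5f1, which keeps ESCs pluripotent, had 832 FPKM in ESCs and 37.1 in NCs, and all 5 ESC markers examined were at least 2-fold lower in NCs. Of 6 neuronal markers, 4 were higher and 2 lower in NCs, among the latter the neuronal tubulin Tubb3 at 33.4 FPKM in ESCs and 7.54 in NCs. Of 5 fibroblast markers, 4 were at least 2-fold higher in NCs. The other, Thy1, was lower, at 9.64 FPKM in ESCs and 1.80 in NCs. The summed level of the 5 was 19.5 FPKM in ESCs and 44.0 in NCs. All 5 genes of the RA response and all 5 of primitive endoderm were higher in NCs, the latter with a sum of 6.63 FPKM in ESCs and 13.8 in NCs, and both mesoderm markers were under 1 FPKM in both conditions. The part of other cell types in the histone values was not tested, and in bulk RNA a different share of cells and a different amount of RNA per cell cannot be told apart.

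The FPKM of the clustered histone genes was low in both conditions, which need not hold for mRNA without a poly(A) tail. The median of the entries above 0 was 0.604 FPKM in ESCs and 0.898 in NCs, whereas the median of all entries above 0 was 4.43 and 4.39 FPKM. Only 2 members in ESCs and 6 in NCs exceeded that median of the table. An FPKM of 1 was reached by 21 members in ESCs and by 26 in NCs, and an FPKM of 10 by 0 and by 1. That member was Hist3h2ba, an H2b gene, which was the highest in both conditions with 5.01 FPKM in ESCs and 10.4 in NCs. Hist1h4d was the next in ESCs at 4.63 FPKM, and Hist1h4i the next in NCs at 6.45 FPKM. The entries of Hist1h2ad, Hist1h2ao, Hist1h2br and Hist1h4n and 1 entry of Hist2h2aa2 were listed at 0 in both conditions, 7 entries in all. Hist1h2aa and Hist1h2an were listed at 0 in ESCs alone, and Hist1h2ah and the other entry of Hist2h2aa2 in NCs alone.

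**Figure D1:**
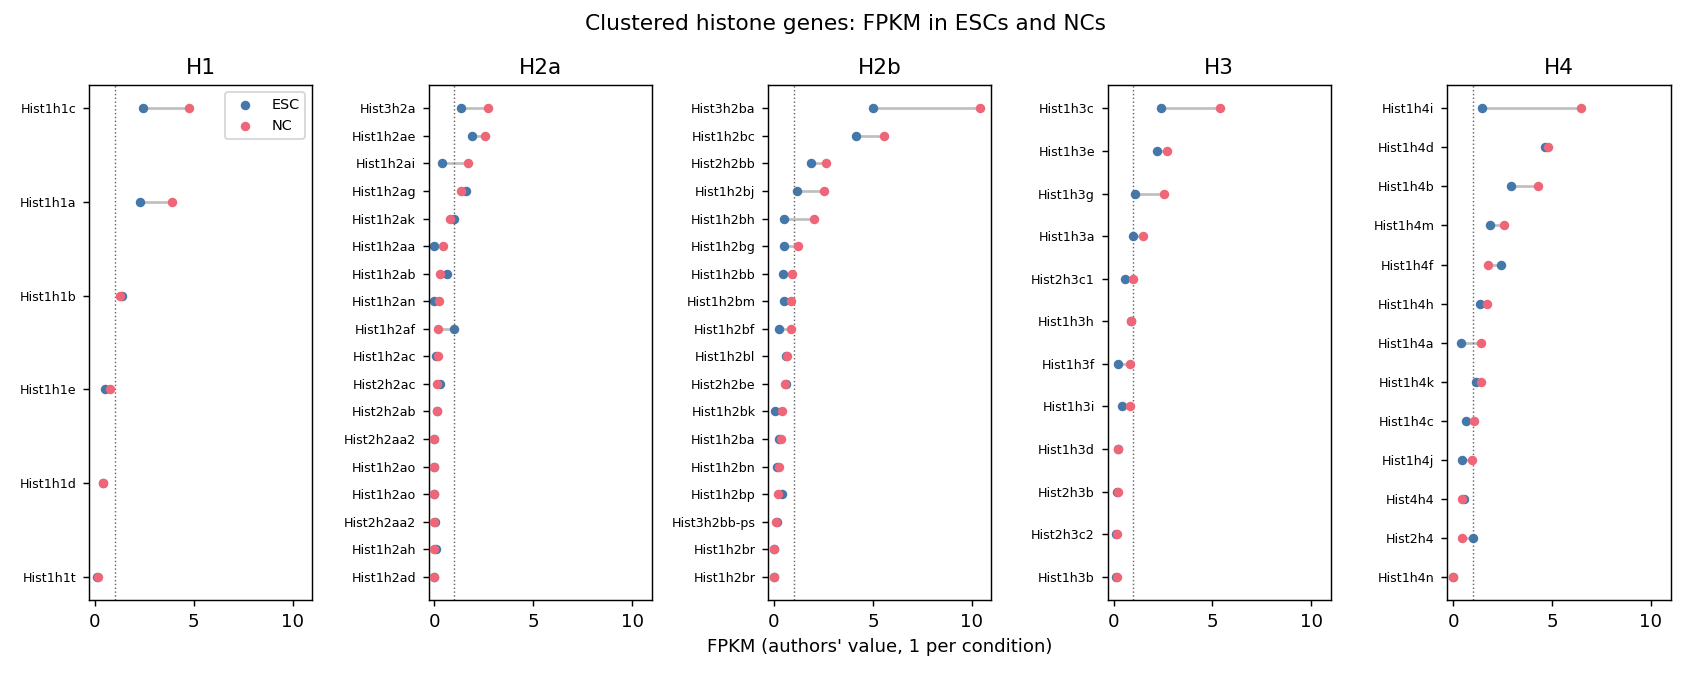
FPKM on a linear axis of each clustered histone gene in ESCs and in NCs, by histone family, with 1 value per condition, no error bars and a dotted line at 1 FPKM. Most pairs of points lie under 5 FPKM, and Hist3h2ba is the rightmost point at 10.4 FPKM in NCs.

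Most members were higher in NCs. Of the 60 entries above 0 in either condition, 44 were higher and 16 lower in NCs, so that 73.3% were higher, against 50.6% of all entries above 0 in either condition. Of the 56 above 0 in both conditions, 42 were higher, where 49.4% of all such entries were, and the members' median log2 ratio of NC to ESC was 0.52, against -0.01 over all entries of that kind. The summed FPKM of the members was 60.5 in ESCs and 95.2 in NCs, a ratio of 1.57, while the sum over the whole table was 770592 and 628679.

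Past the 2-fold limit stood 11 of the 27 members that reached 1 FPKM in either condition. At least 2-fold higher in NCs were 10 members, or 37.0%, against 12.5% of all entries with that level. At least 2-fold lower was 1 member, Hist2h4, or 3.70%, against 10.6% of all entries. The other 16 lay within 2-fold, and the median log2 ratio of the 27 was 0.61, against -0.03 over all entries. Low genes scatter more, and among the 5805 entries whose higher value lay between 1 FPKM and that of Hist3h2ba, 19.8% were at least 2-fold higher and 13.4% at least 2-fold lower, with a median log2 ratio of 0.12. Of the 27 members, 6 passed the level only through NCs and had to be higher there, and Hist2h4 passed only through ESCs. Among the 20 members with at least 1 FPKM in both conditions, 17 were higher by any amount, against 46.4% of all such entries. At least 2-fold higher were 6, against 7.45%, and at least 2-fold lower 0, against 7.89%. Filtered on ESCs alone, 6 of 21 members were at least 2-fold higher, against 7.07% of all entries. With a pseudocount of 1 FPKM, which pulls every low ratio toward equal levels, 2 of the 10 remained past the limit. The share over all entries at that setting is not given here.

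The members are not independent readings. Words of 50 bases were searched on both strands in the transcripts of all other genes. More than 20% of a member's distinct words were shared for 52 of the 64 names, and more than 50% for 31. The other genes include ones annotated over the same bases, such as Gm20628 and Gm42743 at Hist2h2bb. A shared word therefore need not mean a second copy. Fragments could be split among copies or overlapping genes in a way the deposited values do not show. Of the 10 members higher in NCs, 9 shared more than 20% of their words, and Hist1h2bh, with 18.8%, was the exception. Among the 7 members at the level filter that shared at most 20%, 1 was at least 2-fold higher (Hist1h2bh) and 1 at least 2-fold lower (Hist2h4), 14.3% each, which is near the 12.5% and 10.6% of all entries. The 12 entries with so few shared words, of any level, had 8 higher and 4 lower values in NCs and summed to 14.6 FPKM in ESCs and 20.1 in NCs, a ratio of 1.37, against 1.64 for the 55 others. At the 2-fold limit the larger share of higher members thus lay among genes whose sequence is shared, though the other group held only 7. The median log2 ratio at the level filter did not differ that way, at 0.65 for the 7 members and 0.58 for the 20 that shared more. Among entries above 0 in both conditions it was 0.35 for those with few shared words and 0.52 for the others. Words were also shared with genes outside the table's histone names, such as Gm20634 and Trim17, so family sums are exposed to the split too. All 5 family sums were higher in NCs, with ratios of 1.59 for H1, 1.25 for H2a, 1.77 for H2b, 1.75 for H3 and 1.44 for H4.

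**Figure D2:**
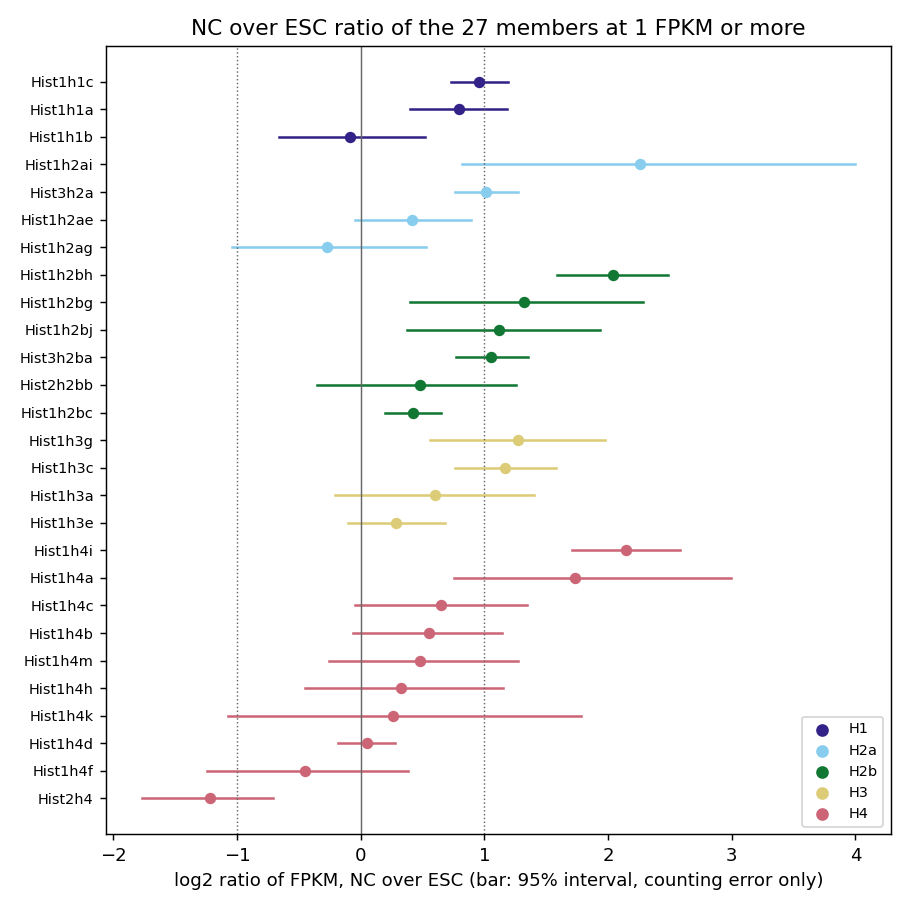
Log2 ratio of the NC to the ESC FPKM for the 27 members with at least 1 FPKM in either condition, with the exact 95% counting interval as a bar and dotted lines at the 2-fold limit. The points of 10 members lie past the limit on the right and that of Hist2h4 past it on the left.

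The linker histone genes had 5 entries higher and 1 lower in NCs, and 0 of the 3 that reached 1 FPKM passed 2-fold. Of all entries with that level, 12.5% were at least 2-fold higher and 10.6% at least 2-fold lower. Hist1h1c, on chromosome 13 at 23738808 to 23740367 (GRCm38), encodes a somatic H1. It had 2.46 FPKM in ESCs and 4.78 in NCs, a ratio of 1.94 with a counting interval of 1.66 to 2.28 and about 242 and 457 fragments. Hist1h1a had 2.26 FPKM in ESCs and 3.92 in NCs, a ratio of 1.73 with an interval of 1.32 to 2.27. It shared no 50-base word with another gene. Hist1h1b shared none either, and was level at 1.35 and 1.27 FPKM. Hist1h1t, the H1 gene of the testis, was at 0.0949 and 0.157 FPKM, from about 5 and 8 fragments. Hist1h1c and Hist1h1a thus carried most of the family sum, which was 7.10 FPKM in ESCs and 11.3 in NCs.

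The H2a genes had no common direction. Of their 18 entries, 6 were higher, 8 lower and 4 at 0 in both conditions, and the median log2 ratio of those above 0 in both was -0.30. Hist3h2a, on chromosome 11 at 58954685 to 58956830, was at 1.35 FPKM in ESCs and 2.72 in NCs, a ratio of 2.02 with a counting interval of 1.69 to 2.42. On the same strand its exons overlap those of Trim17, a gene for a ubiquitin ligase, which had 0.239 and 0.509 FPKM, a ratio of 2.13. How fragments in the shared exons were divided between Hist3h2a and Trim17 was not tested. Hist1h2ai was at 0.359 FPKM in ESCs and 1.72 in NCs, a ratio of 4.78, but it rested on about 5 and 23 fragments and shared 90.1% of its words with other genes. Its interval ran from 1.76 to 15.96. Hist1h2ae had 1.92 and 2.56 FPKM, and Hist1h2ag had 1.61 and 1.33 FPKM, so that these members reaching 1 FPKM in both conditions lay within 2-fold on both sides. Hist1h2af, just short of the level filter at 0.997 FPKM in ESCs, was at 0.200 FPKM in NCs from about 14 and 3 fragments, and 94.0% of its words were shared.

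Among the H2b genes, 13 entries were higher and 3 lower in NCs, and 4 of the 6 that reached 1 FPKM were at least 2-fold higher. Of all entries that reached it 12.5% were, and 19.8% of those up to the level of Hist3h2ba. Hist1h2bg and Hist1h2bh reached 1 FPKM only in NCs and had to be higher. Of the 4 with 1 FPKM in both conditions 2 were at least 2-fold higher, against 7.45% of all such entries. Hist3h2ba, on chromosome 11 at 58948920 to 58949533, went from 5.01 FPKM in ESCs to 10.4 FPKM in NCs, a ratio of 2.08 with a counting interval of 1.71 to 2.56 from about 150 and 304 fragments. Hist1h2bh, on chromosome 13 at 23541714 to 23543392, was at 0.499 FPKM in ESCs and 2.05 in NCs. Its ratio of 4.10, with an interval of 3.002 to 5.585 and about 54 and 213 fragments, had a lower bound well clear of equal levels. Hist1h2bj was at 1.16 and 2.53 FPKM, a ratio of 2.17 with an interval of 1.30 to 3.84. Hist1h2bg was at 0.488 and 1.22 FPKM, a ratio of 2.49 with an interval of 1.32 to 4.86. The interval of each of these 4 genes began above 1, and that of Hist1h2bh lay above 2. As the 4 were chosen by a ratio of at least 2, this is not separate support. Shared words made up 22.1% for Hist3h2ba, 18.8% for Hist1h2bh, 59.4% for Hist1h2bj and 49.7% for Hist1h2bg. The intervals do not cover a split of fragments among genes.
The other 2 were nearer to equal levels. Hist1h2bc, the second highest of the family, had 4.15 FPKM in ESCs and 5.56 in NCs, a ratio of 1.34 with an interval of 1.15 to 1.57. Hist2h2bb had 1.88 and 2.62 FPKM, a ratio of 1.398 with an interval of 0.784 to 2.39. All of its words were shared, with genes annotated over the same bases. Hist2h2be, which shared no word with another gene and is known as an H2b variant of olfactory neurons, was level at 0.607 and 0.548 FPKM. Hist1h2ba, an H2b gene of the testis, stayed low at 0.229 and 0.355 FPKM, from about 3 and 5 fragments.

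The H3 genes were the most uniform in sign, with 11 entries higher and 1 lower in NCs. Hist1h3c, on chromosome 13 at 23744973 to 23745602, was at 2.39 FPKM in ESCs and 5.39 in NCs, a ratio of 2.25 with a counting interval of 1.69 to 2.98. Hist1h3g, on the same chromosome at 23535422 to 23535951, was at 1.07 and 2.58 FPKM, a ratio of 2.41 with an interval of 1.48 to 3.93. These were the 2 of 4 members at 1 FPKM or more that passed 2-fold. Of all entries with that level 12.5% were at least 2-fold higher, and 19.8% of those up to the level of Hist3h2ba. Hist1h3e had 2.20 and 2.69 FPKM, a ratio of 1.22, and Hist1h3a had 0.972 and 1.48 FPKM, a ratio of 1.52. Both of their intervals included equal levels. Below the level filter, Hist1h3f was at 0.217 FPKM in ESCs and 0.856 in NCs, a ratio of 3.95 from about 17 and 64 fragments. The single lower entry was Hist1h3h, at 0.886 and 0.868 FPKM, and it differed by less than the counting error. The H3 proteins of the clusters are almost the same, and 54.1% of the words of Hist1h3g and 47.0% of those of Hist1h3c were shared.

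Among the H4 genes, 2 of the 10 that reached 1 FPKM were at least 2-fold higher and 1 was lower. Of all entries with that level, 12.5% were at least 2-fold higher and 10.6% at least 2-fold lower. Of those up to the level of Hist3h2ba, 19.8% were higher and 13.4% lower by that limit, near the shares of the H4 genes. Hist1h4i, on chromosome 13 at 22040636 to 22041362, was at 1.46 FPKM in ESCs and 6.45 in NCs, a ratio of 4.42 with a counting interval of 3.275 to 5.99 and about 56 and 239 fragments. Hist2h4, on chromosome 3 at 96261682 to 96263311, was at 1.02 FPKM in ESCs and 0.437 in NCs, 2.33-fold lower, from about 106 and 44 fragments. Its log2 ratio was -1.22 with an interval of -1.77 to -0.71, and it shared 1.01% of its words with other genes. The genes with the same stem-loop letters thus differed in direction, and the 2 intervals did not overlap. Hist1h4i, however, shared 28.9% of its words, and its interval does not cover a split of fragments among genes. Hist1h4a was at 0.427 FPKM in ESCs and 1.42 in NCs, a ratio of 3.33 with an interval of 1.69 to 7.95 from about 10 and 34 fragments. Of its words 40.4% were shared.
The 7 other H4 genes that reached 1 FPKM lay within 2-fold. Hist1h4d, the highest H4 gene in ESCs, was level at 4.63 and 4.79 FPKM, a ratio of 1.03 with an interval of 0.881 to 1.21 from about 315 and 316 fragments. Hist1h4b had 2.92 and 4.28 FPKM, a ratio of 1.47, and Hist1h4f had 2.42 and 1.77 FPKM, 1.37-fold lower. The intervals of both included equal levels. Hist1h4c was at 0.678 and 1.06 FPKM, and Hist1h4h at 1.35 and 1.69 FPKM. Hist1h4m was at 1.84 and 2.57 FPKM, and Hist1h4k at 1.16 and 1.399 FPKM. All 4 were thus higher in NCs, with intervals that included equal levels. Hist4h4, the only member on chromosome 6, was at 0.538 and 0.455 FPKM, a difference within its counting interval. As all H4 genes encode the same protein, the sum of 18.9 FPKM in ESCs and 27.3 in NCs covers 1 product.

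The members were also summed by their position on the chromosomes. The Hist1 cluster on chromosome 13 held 51 of the 64 names, with 9 on chromosome 3, 3 on chromosome 11 and 1 on chromosome 6. Its summed level was 48.6 FPKM in ESCs and 76.3 in NCs, a ratio of 1.57. The Hist2 genes on chromosome 3 summed to 4.87 and 5.21 FPKM, a ratio of 1.07. The 3 Hist3 genes on chromosome 11 summed to 6.52 and 13.2 FPKM, a ratio of 2.03, of which Hist3h2ba made up the most. In the nearly level Hist2 sum, Hist2h4 was lower while Hist2h2bb and Hist2h3c1, at 0.601 and 0.992 FPKM, were higher. Only 2 Hist2 entries reached 1 FPKM, and the differences between clusters were not tested.

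Within chromosome 13 the genes fell into stretches separated by more than 100 kb. The 28 names at 23531050 to 23764406 summed to 34.8 FPKM in ESCs and 52.3 in NCs, with 24 entries higher and 3 lower. The 16 names at 21715763 to 21837530 summed to 9.16 and 12.6 FPKM, a ratio of 1.38. The 5 names at 22035164 to 22043676, which include Hist1h4i and Hist1h2bj, summed to 4.40 and 10.7 FPKM, a ratio of 2.43, and Hist1h4i alone made up most of that difference.

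Neighbours that start back to back on opposite strands were compared as pairs. There were 12 such pairs with starts less than 1000 bases apart, 11 of them an H2a with an H2b gene. Of the 8 pairs above 0 in both conditions for both genes, 4 had both genes higher in NCs, 1 had both lower and 3 had opposite signs. Hist1h2bh and Hist1h3f, with 660 bases between their starts, had nearly the same log2 ratio, 2.04 and 1.98. Hist1h2ag and Hist1h2bj, with 270 bases between them, had log2 ratios of -0.27 and 1.12. In all 3 pairs of opposite sign the counting interval of the lower gene included equal levels: for Hist1h2ag it ran from 0.488 to 1.45, for Hist1h2ak from 0.333 to 1.92, and the pseudogene Hist3h2bb-ps rested on about 3 and 1 fragments. The data thus show no pair whose genes differed in opposite directions beyond counting error.

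Promoter letters were read in the RefSeq windows (GRCm38.p6) from 250 bases before to 50 bases after the start of 58 names. The octamer ATTTGCAT, searched on both strands, is the element bound by POU factors such as OCT1 in H2b promoters. It stood in 6 of 14 H2b and 7 of 16 H2a windows and in none of those of H1, H3 and H4, against 1.74% of all windows. Since H2a and H2b genes that lie back to back share these bases, the windows are not independent. The windows of 3 H2b genes are printed with the octamer in capitals, as examples of the same element at different distances from the start.
Hist1h2bg, chr13:23571330-23571359 on the plus strand: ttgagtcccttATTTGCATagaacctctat
Hist1h2bb, chr13:23746633-23746662 on the plus strand: ttgagtctcttATTTGCATaaagcctttga
Hist2h2bb, chr3:96269641-96269670 on the plus strand: tgtgaaacctcATTTGCATacaagctctat
Of the 6 H2b genes with the octamer, 6 were higher in NCs, with a median log2 ratio of 0.90. Of the 8 without it, 6 were higher and 1 lower, with a median of 1.06. Of the 7 H2a genes with the octamer, 4 were higher and 3 lower, and the median of those above 0 in both conditions was 0.42. Of the 11 H2a entries without it, 2 were higher, 5 lower and 4 at 0, with a median of -0.32. The difference in medians thus had opposite signs in H2a and H2b and was not tested. CCAAT stood in every H1, H2a, H2b and H3 window examined but in 3 of 12 H4 windows, against 37.4% of all windows. The 3 H4 genes with CCAAT (Hist1h4a, Hist1h4c and Hist1h4d) were all higher in NCs, with a median log2 ratio of 0.65, and of the 9 without it 6 were higher and 2 lower, with a median of 0.40.

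Because the stem-loop marks where replication-dependent mRNA ends, the annotated transcripts were grouped by how far they run past it. The 22 entries whose transcript runs on for more than 100 bases, as those of Hist3h2ba, Hist1h2bh, Hist1h1c, Hist1h4i and Hist2h4 do, had 20 higher and 2 lower values in NCs. Their median log2 ratio was 0.76, and their sum was 25.3 FPKM in ESCs and 45.8 in NCs, a ratio of 1.81. The 23 entries that end near the stem-loop, among them Hist1h3c, Hist1h3g and Hist1h2bj, had 12 higher and 6 lower values, a median of 0.55 and a ratio of sums of 1.48. The 22 entries without the letters, which include Hist1h2bc, Hist1h1a and Hist1h2ai, had 12 higher and 8 lower values, a median of 0.16 and a ratio of sums of 1.32. The groups also differ in family, transcript length and shared words, and the difference between them was not tested. The group without the letters includes short models that may end before the stem-loop, such as that of Hist1h2ai with 393 bases. It therefore need not be a class of 3′ ends. Among transcripts that run on, Hist1h1d, at 4884 bases past the stem-loop, was level at 0.428 and 0.432 FPKM. Hist2h4, whose transcript runs 1257 bases past its stem-loop, and Hist4h4, at 2445 bases, were the 2 lower entries of the group that runs on.

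**Figure D3:**
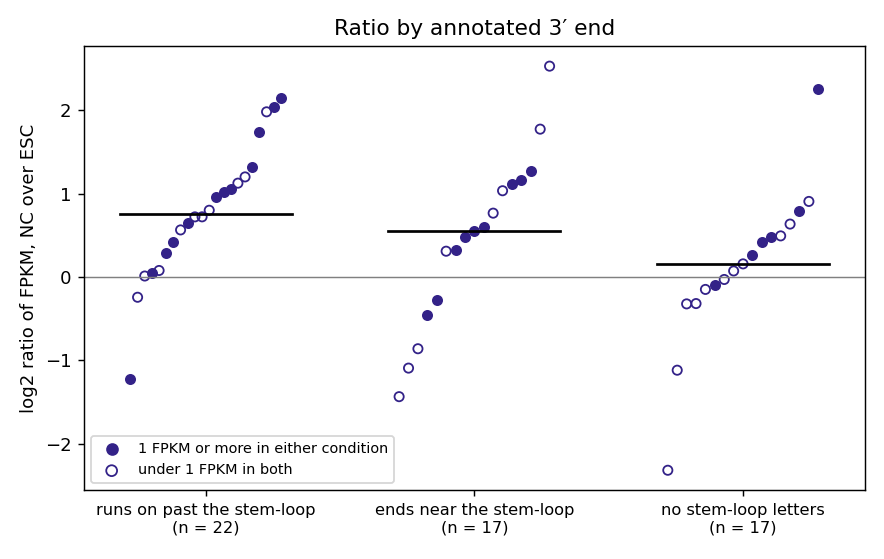
Log2 ratio of the NC to the ESC FPKM, each point an entry above 0 in both conditions, by where the annotated transcript ends relative to the stem-loop letters, with the median of each group as a line. The medians are 0.76 for transcripts that run on, 0.55 for those that end near and 0.16 for those without the letters, and the 3 groups overlap.

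Replacement histone genes lie outside the clusters, and most are transcribed independently of replication. Of the 15 in the table, 11 reached 1 FPKM, and the lowest of these stood above every clustered member in both conditions. H1fnt, H1foo, H2afb1 and H2afy3 were under 1 FPKM in both. If poly(A) RNA was selected, clustered mRNA without a tail was taken up poorly. The levels of the 2 kinds of gene therefore need not compare amounts of mRNA in the cells. H2afz, the gene for H2A.Z, had 1026 FPKM in ESCs and 859 in NCs. H3f3a and H3f3b, both genes for H3.3, had 365 and 345 FPKM in ESCs and 464 and 598 FPKM in NCs. Of the 11 replacement genes that reached 1 FPKM, 3 were at least 2-fold higher and 1 lower. All 11 had at least 1 FPKM in both conditions, where 7.45% and 7.89% of all entries were. The median log2 ratio of the 11 was 0.17, against 0.48 for the 20 clustered members with that level in both conditions. It was 0.61 for the 27 with that level in either. H1f0, the linker histone of differentiated cells, was at 44.5 and 115 FPKM, a ratio of 2.59. H1fx was at 64.0 and 144 FPKM, a ratio of 2.26. H2afy2, for a macroH2A, was at 16.5 and 50.3 FPKM, a ratio of 3.05, and H2afj was at 30.9 and 15.4 FPKM, 2.01-fold lower. The linker histone genes H1f0 and H1fx thus passed 2-fold, whereas 0 of the clustered H1 genes did. Among the latter Hist1h1c lay close to the limit, with a ratio of 1.94 and a counting interval of 1.66 to 2.28. The oocyte linker gene H1foo was at 0.101 and 0.0765 FPKM.

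The factors that make or process histone mRNA were nearly level. All 19 such genes had at least 1 FPKM in both conditions. Of these, 0 were at least 2-fold higher and 1 lower, against 7.45% and 7.89% of all entries with that level. The lower gene was Zfp473, whose zinc finger protein acts in 3′ end processing of histone mRNA, with 8.24 FPKM in ESCs and 3.77 in NCs. Slbp had 69.1 and 77.4 FPKM, and Npat, the coactivator of histone gene transcription, had 10.2 and 10.6 FPKM. The median log2 ratio of the list was -0.07. The highest ratio among them was that of Zcchc11, a uridylyltransferase that acts on histone mRNA, at 18.6 and 28.9 FPKM, a ratio of 1.56.

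Genes of S phase mostly stayed within 2-fold. Of 28 such genes, all with at least 1 FPKM in both conditions, 26 lay within that limit. The 1 higher and 1 lower gene past it stand beside 7.45% and 7.89% of all entries with that level. By sign alone 8 of the 28 were higher and 20 lower in NCs, where 46.4% of all such entries were higher. The median log2 ratio of the 28 was -0.30, with a sum of 2929 FPKM in ESCs and 2293 in NCs. Past 2-fold stood Ccne2, a cyclin of S-phase entry, at 1.91 and 4.80 FPKM, and Hat1, which acetylates new histone H4, at 362 and 178 FPKM. Pcna, the sliding clamp of the replication fork, had 374 and 332 FPKM. Whether the share of cells in S phase differed between the conditions was not tested.

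**Figure D4:**
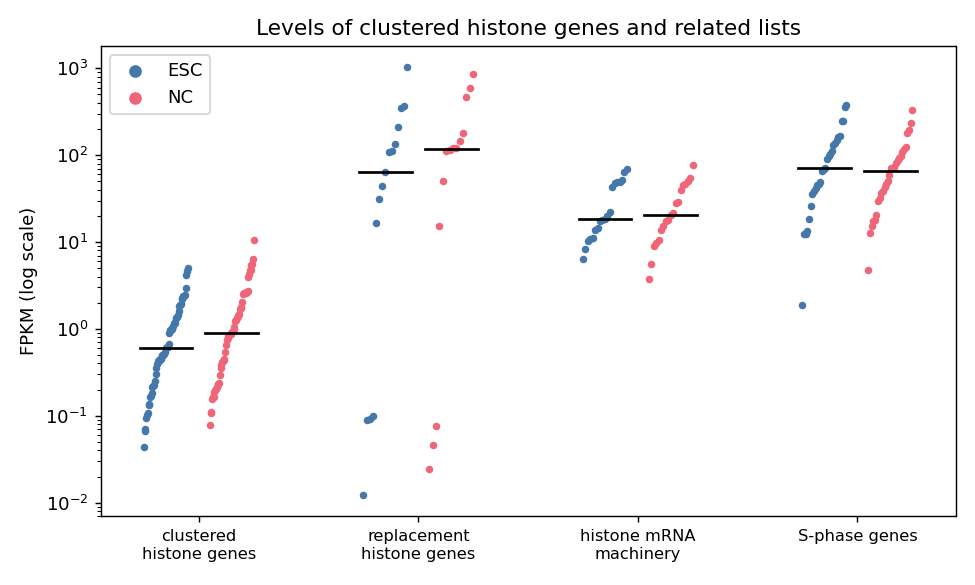
FPKM on a log axis in ESCs and in NCs for the clustered histone genes, the replacement histone genes, the genes of histone mRNA machinery and the S-phase genes, each point 1 entry above 0 and each bar the median of the points. The medians of the clustered genes, 0.604 and 0.898 FPKM, lie far under those of the other lists. They may miss mRNA without a poly(A) tail.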

How the data were processed

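RNA-seq of 3 ESC and 3 NC samples was analysed. Per the labels, the authors made TruSeq libraries, sequenced them on a HiSeq instrument and used TopHat2 2.0.8, Bowtie2 2.1.0, Cufflinks 2.0.2 and Cuffdiff with mm10. The version of Cuffdiff, the treatment of fragments with several alignments and the library strand are not given in the sources used here. The authors deposited 1 FPKM value per entry and condition, pooled over replicates. The NC column is headed FPK and was treated as FPKM. The deposited table also holds the authors' log2 fold changes, test statistics, p-values, q-values and calls, and none of these was used.

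Ratios were computed without a pseudocount, and an entry was counted at 2-fold with an FPKM of at least 1 in either condition. The samples were grouped by the culture and treatment in the labels. Named genes were the members with at least 1 FPKM in either condition, members listed at 0 and the genes with the largest rise and fall among those of each other list at that level, and any other gene was named after its values were seen. The members and the gene lists (replacement histones, histone mRNA machinery, S phase, ESC, RA response, neuronal, fibroblast, primitive endoderm and mesoderm markers) were chosen with earlier results of these data known. H3f3c, of the replacement list, was not found by name. Transcript lengths, exon overlaps and shared 50-base words came from GENCODE M21, and promoter windows from RefSeq. RefSeq names were matched through synonyms.

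The FPKM of 1 fragment was estimated from the steps among low values of single-transcript genes, assuming a fragment length of 200 bases. The larger of the 2 steps found in each condition was used, which gives the fewer fragments and the wider intervals. Intervals of a ratio are exact conditional binomial (Clopper-Pearson) intervals. The steps, intervals, stretches of chromosome 13 and the comparison over entries of like level were chosen after seeing the data. At 1 kb, 3 fragments came to 0.0413 (ESCs) and 0.0426 FPKM (NCs). The computation was tested on simulated data. Scripts used Python 3.11.15 with pandas 2.3.3, numpy 2.4.6, matplotlib 3.10.9 and scipy 1.17.1. Alternatives were pseudocounts, filters on FPKM, centring, other fold limits and the removal of members with shared words.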

Additional observations from a re-analysis of the deposited data

How the results depend on the processing

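The number of clustered histone genes at least 2-fold higher in NCs, 10 of 27, changed with the settings. Without members that shared over 20% of their words it was 1 of 7, or 14.3%, with as many lower, against 12.5% and 10.6% of all entries. A share among 7 members cannot show whether shared sequence mattered. The number higher was 2 with a pseudocount of 1 FPKM and 3 at a 4-fold limit. With at least 1 FPKM required in both conditions it was 6 of 20, against 7.45% of all entries. Without the filter it was 16 of 56, against 16.2% of all entries. With at least 1 FPKM required in ESCs, a choice made after seeing the data, it was 6 of 21, against 7.07% of all entries. The number at least 2-fold lower, 1, became 0 with a pseudocount of 1 FPKM, with 1 FPKM in both conditions and at 4-fold, and 5 of 56 without the filter, against 13.2% of all entries. The median log2 ratio of the H2a genes reversed from 0.71 to -0.30 without the filter. That of the H2b genes, 1.09, was 0.64 with a pseudocount of 1 FPKM, 0.77 with 1 FPKM in both conditions and 0.70 without the filter, and that of the H3 genes, 0.89, was 1.17 with 1 FPKM in both conditions. For H2a and H3 without shared words no member at 1 FPKM was left. The causes were not tested. A pseudocount of 0.1 gave 9 higher members, and centring, by a median log2 ratio of -0.05, gave 11. For pseudocounts, centring and the 4-fold limit no share over all entries is given, so those counts cannot be set against it.

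Of the replacement histone genes, the 3 higher became 0 at 4-fold, and the 1 lower became 0 with a pseudocount of 1 FPKM, with centring and at 4-fold, and 2 without the filter. Of the machinery genes, the 0 higher became 1 at 1.5-fold, and the 1 lower became 0 with a pseudocount of 1 FPKM and at 4-fold, and 2 at 1.5-fold. Of the S-phase genes, the 1 higher became 0 with a pseudocount of 1 FPKM and at 4-fold, and 2 at 1.5-fold, and the 1 lower became 0 with centring and at 4-fold, and 6 at 1.5-fold.

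No paired analysis was possible because the table holds 1 pooled value per condition, and leaving out a replicate was not run for the same reason. Depth limits 17 entries, whose FPKM, before rounding to whole fragments, was at or under that of 3 fragments in at least 1 condition.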
